A study of Mus musculus with 8 samples.

Results

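The core circadian clock genes were followed in RNA from whole livers of 8 female mice, all fed ethanol. The 10 genes (Arntl, Clock, Npas2, Per1, Per2, Cry1, Nr1d1, Nr1d2, Dbp and Bhlhe40) were chosen by their GENCODE symbols. Each had 1 row among the 55335 genes of the count table, and all 10 were among the 15234 genes that passed the filter on low counts. Ripk1, which encodes a kinase and scaffold of cell death and inflammatory signalling, was knocked out in hepatocytes of mice 28, 34, 37 and 39 (Ripk1-hepKO). Mice 29, 32, 40 and 41 were the controls (Ripk1-Con). Values of single mice are given in that order throughout. All 8 animals had been on the chronic-plus-binge ethanol feeding model of the NIAAA, and the study calls the mice of a genotype independent. Each mouse gave 1 poly(A)-selected, strand-specific library. The Cre driver, the genotype of the controls at Ripk1, strain, age and the time of day at which livers were taken are not given in the sources used here.

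The liver clock is a feedback loop of transcription. BMAL1 (the product of Arntl) pairs with CLOCK or its relative NPAS2 and binds E-boxes in the Per, Cry, Nr1d1, Nr1d2, Dbp and Bhlhe40 genes. The PER and CRY proteins then block that pair, while REV-ERB alpha and beta (from Nr1d1 and Nr1d2) repress Arntl and Npas2 through elements shared with the ROR receptors. In the liver of mice on a regular light cycle, Arntl and Npas2 transcripts are known to be high around the end of the night, when Dbp and Nr1d1 are low. Nr1d1 and Dbp are high in the day and the Per genes around dusk. Feeding time, glucocorticoids and body temperature can shift this loop in liver.

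Promoter windows from RefSeq on build GRCm38.p6 (250 bases before to 50 after a transcript start) were matched for 8 of the 10 genes, in 12 windows, and were searched for the elements through which the clock proteins are known to act. The 4 stretches that held one are printed 5′ to 3′ on the strand of the gene, with the elements found in capitals. The stretches for Cry1 (chr10:85185055-85185304, minus strand) and Per1 (chr11:69098699-69098948, plus strand) are the 250 bases before the start, and those for Nr1d1 (chr11:98775387-98775416, minus strand) and Arntl (chr7:113207530-113207559, plus strand) are 30 bases around the element.
Cry1: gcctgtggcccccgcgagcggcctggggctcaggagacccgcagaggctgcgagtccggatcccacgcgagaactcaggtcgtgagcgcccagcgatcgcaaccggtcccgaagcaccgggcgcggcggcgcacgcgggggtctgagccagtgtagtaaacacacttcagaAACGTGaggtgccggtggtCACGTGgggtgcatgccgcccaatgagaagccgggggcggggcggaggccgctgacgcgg
Per1: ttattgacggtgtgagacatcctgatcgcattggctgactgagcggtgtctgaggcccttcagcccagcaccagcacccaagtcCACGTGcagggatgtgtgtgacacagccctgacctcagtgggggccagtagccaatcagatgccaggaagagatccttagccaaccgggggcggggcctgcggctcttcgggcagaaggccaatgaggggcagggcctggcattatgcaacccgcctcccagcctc
Nr1d1: gcacagatctcAACGTGccggctgctggaa
Arntl: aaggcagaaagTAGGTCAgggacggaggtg
The E-box CACGTG, searched on both strands, lay in the windows of Cry1 and Per1, 60 and 166 bases before the start. The E-box variant CACGTT, printed here as AACGTG on the other strand, lay 79 bases before the start of Cry1 and 28 bases before that of Nr1d1. The REV-ERB and ROR element (TAGGTCA or TGGGTCA) lay 30 bases after a start of Arntl, and the D-box (TTATGTAA or TTACGTAA) was in no member's window. No matches overlapped in the windows of these members. Of all 32851 windows, 7.15% held CACGTG, 4.68% CACGTT, 6.45% the REV-ERB and ROR element and 1.06% the D-box. These matches are a description of the sequence.

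Libraries held 28038390 to 67328158 counts. Hepatocyte markers (Alb, Apoa1, Ttr, Serpina1c, Cps1 and Tat) were all detected, with a summed level of 64389 to 85411 CPM (reads of a gene relative to the TMM-scaled library total) in Ripk1-hepKO mice and 90863 to 107310.0 CPM in Ripk1-Con mice. Each Ripk1-hepKO mouse was below each Ripk1-Con mouse in that sum, a split seen in 2.09% of all single genes. Of the 6 markers 5 had a negative log2 fold change (48.2% of all genes), none of them passing the test. The sum weighs the most abundant markers most, and values of single markers are not given here. In bulk tissue, fewer cells of a type and less RNA per cell cannot be told apart, and the part of this difference in the clock gene values was not tested. Ripk1 itself averaged 32.5 ± 6.63 CPM in libraries labelled Ripk1-hepKO and 37.5 ± 11.2 CPM in those labelled Ripk1-Con (SD, n = 4 each; adjusted p = 0.866 in the edgeR quasi-likelihood test), so its count did not tell the genotypes apart. Other liver cells keep Ripk1, and the deleted part of the gene is not given in the sources used here, so directions rest on the labels. Mouse 28 stood apart from the other libraries (mean Spearman correlation 0.954, against 0.974 to 0.980), and mouse 40 had the lowest summed Kupffer cell markers, at 69.8 CPM against 159 to 317 CPM in the others. Where leaving out 1 mouse moved a log2 fold change given here by over 1.5 times, the value without it, or the range, is given.

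Per kilobase of exon, and averaged over the 8 mice, the members spanned a wide range of levels. Bhlhe40 was highest at 24.3 ± 13.8 CPM per kilobase (SD, n = 8 here and for the genes that follow), ahead of Nr1d2 at 12.7 ± 3.34, Per2 at 11.3 ± 2.96 and Per1 at 8.43 ± 1.73. Cry1 stood at 6.25 ± 1.179 CPM per kilobase, Nr1d1 at 4.99 ± 1.33, Clock at 2.53 ± 0.403, Dbp at 2.27 ± 1.65, Arntl at 1.43 ± 0.450 and Npas2 at 0.180 ± 0.185. Neighbours in this order overlapped in their ranges over the mice, except that Nr1d1 lay above Clock and Arntl above Npas2 in every mouse.

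No core clock gene passed the test between the genotypes. Of the 10 members 0 passed a false discovery rate (FDR) of 0.05 in edgeR's quasi-likelihood test, where 0.0% of all 15234 genes did. With DESeq2, 0 members passed (0.237% of all genes), and with limma voom and quality weights 0 passed (0.0%). At an unadjusted p under 0.05 in edgeR there were 2 members (6.68% of all genes), Bhlhe40 on the higher side (3.86% of all genes) and Clock on the lower (2.82%). Members below a log2 fold change of 0 numbered 7 of 10, against 48.2% of all genes, and their median was -0.25, against 0.01 over all genes tested. The groups overlapped in all 10 members, while they did not overlap in 4.1% of all genes.

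**Figure D1:**
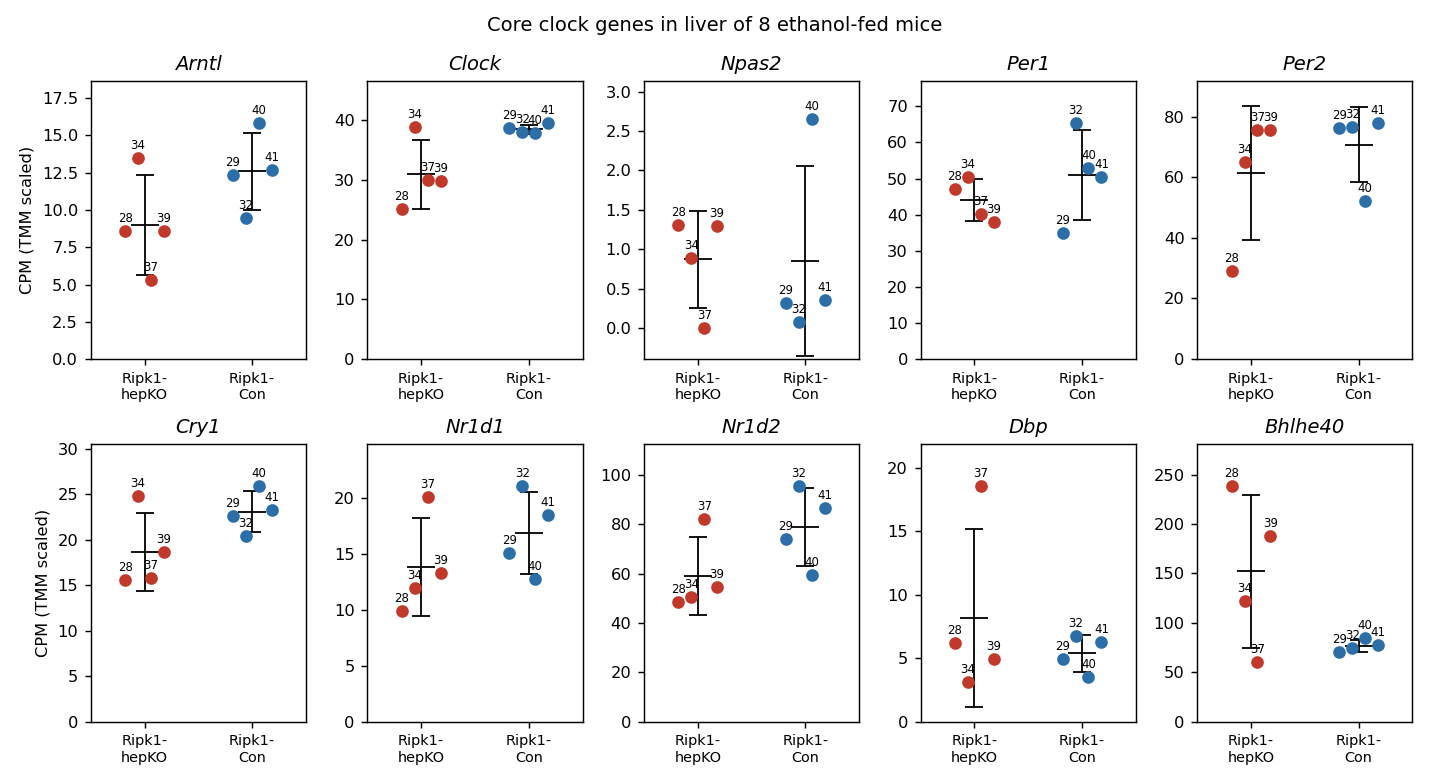
CPM (TMM scaled) of each core clock gene on the vertical axis, with each point 1 mouse labelled by its number, Ripk1-hepKO in red on the left and Ripk1-Con in blue on the right. Bars are mean ± SD (n = 4 each). Bhlhe40 is spread from 60.2 to 238 CPM in Ripk1-hepKO mice and from 70.7 to 84.8 CPM in Ripk1-Con mice, and Dbp is highest in mouse 37.

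Of the activators, Arntl stood at 8.58, 13.5, 5.28 and 8.59 CPM in Ripk1-hepKO livers, against 12.4, 9.49, 15.8 and 12.7 CPM in Ripk1-Con livers. Mice 28, 37 and 39 lay below every control, and mouse 34 lay above all controls but mouse 40. The log2 fold change of Arntl (ENSMUSG00000055116, chromosome 7, 113207465 to 113314126, plus strand) was -0.49 ± 0.27 (SE; adjusted p = 0.770 in the edgeR quasi-likelihood test), with a 95% interval of -1.09 to 0.12. It was -0.74 without mouse 34 and -0.30 without mouse 37. Clock, which encodes the partner of BMAL1, stood at 25.2, 38.9, 29.97 and 29.8 CPM in Ripk1-hepKO livers, against 38.7, 38.1, 37.8 and 39.5 CPM in Ripk1-Con livers. The 4 controls lay close together, with 3 Ripk1-hepKO mice below them and mouse 34 among them. Clock (ENSMUSG00000029238, chromosome 5, 76209868 to 76304792, minus strand) had a log2 fold change of -0.31 ± 0.13 (SE; adjusted p = 0.742 in edgeR) and a 95% interval, not adjusted for the number of genes, of -0.61 to -0.02.

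Npas2 (ENSMUSG00000026077, chromosome 1, 39193731 to 39363236, plus strand), the paralog that can take the place of Clock, was near the floor, with 71, 32, 0 and 72 counts in Ripk1-hepKO livers and 11, 5, 80 and 15 counts in Ripk1-Con livers. As levels these were 1.30, 0.892, 0.00 and 1.30 CPM in the Ripk1-hepKO mice and 0.314, 0.0808, 2.66 and 0.356 CPM in the Ripk1-Con mice. The count of 0 in mouse 37 allows up to 0.0700 CPM, taken as 3 counts and covering counting error only. The highest mouse (40) and the lowest counted control (32) were of the same genotype. The fitted log2 fold change of 0.09 ± 1.15 (SE; adjusted p = 0.992 in edgeR) had a 95% interval of -2.51 to 2.70, so a difference of severalfold either way would not have been detectable. It was 1.85 without mouse 40, 0.50 without mouse 37 and between -0.31 and -0.15 without any other single mouse but 34.

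The genes of the PER and CRY arm overlapped between the groups. Per1 (ENSMUSG00000020893) lies on chromosome 11 at 69095217 to 69109960, plus strand, Per2 (ENSMUSG00000055866) on chromosome 1 at 91415982 to 91459324, minus strand, and Cry1 (ENSMUSG00000020038) on chromosome 10 at 85131700 to 85185064, minus strand. Per1 stood at 47.2, 50.4, 40.2 and 38.1 CPM in Ripk1-hepKO livers, against 35.03, 65.3, 52.9 and 50.6 CPM in Ripk1-Con livers (log2 fold change -0.21 ± 0.18, SE; adjusted p = 0.830 in edgeR). It was -0.07 without mouse 32, the highest, and -0.36 without mouse 29, the lowest. Per2 stood at 29.001, 65.1, 75.5 and 75.7 CPM in Ripk1-hepKO livers, against 76.4, 76.6, 52.1 and 77.8 CPM in Ripk1-Con livers. Mice 28 and 40, 1 of each genotype, were the low ones in Per2, and the log2 fold change of -0.21 ± 0.28 (SE; adjusted p = 0.898 in edgeR) was 0.03 without mouse 28 and -0.32 without mouse 37, 39 or 40. Cry1, a cryptochrome and the strongest transcriptional repressor of the arm, stood at 15.6, 24.8, 15.8 and 18.7 CPM in Ripk1-hepKO livers, against 22.6, 20.5, 25.9 and 23.3 CPM in Ripk1-Con livers. Mice 28, 37 and 39 lay below every control, as they did for Arntl, and the log2 fold change was -0.30 ± 0.16 (SE; adjusted p = 0.769 in edgeR), or -0.46 without mouse 34 and -0.17 without mice 28 and 40 together. The 95% intervals were -0.62 to 0.20 for Per1, -0.84 to 0.43 for Per2 and -0.67 to 0.06 for Cry1.

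The REV-ERB genes had like patterns over the mice. Nr1d1 (ENSMUSG00000020889) lies on chromosome 11 at 98767932 to 98775333 and Nr1d2 (ENSMUSG00000021775) on chromosome 14 at 18204054 to 18239127, both on the minus strand. Nr1d1 stood at 9.95, 12.0, 20.1 and 13.3 CPM in Ripk1-hepKO livers, against 15.1, 21.1, 12.8 and 18.5 CPM in Ripk1-Con livers. Nr1d2 stood at 48.3, 50.6, 82.2 and 54.4 CPM in Ripk1-hepKO livers, against 74.0, 95.4, 59.3 and 86.6 CPM in Ripk1-Con livers. In both genes mouse 32 was the highest of all and mice 28 and 34 the lowest, and mouse 37 was the highest of its genotype. The log2 fold changes were -0.29 ± 0.24 for Nr1d1 and -0.42 ± 0.20 for Nr1d2 (SE; adjusted p = 0.819 and 0.756 in edgeR), with 95% intervals of -0.82 to 0.24 and -0.88 to 0.04. For Nr1d1 it was -0.16 without mouse 28 and also without mouse 32, and -0.52 without mouse 37. Nr1d1 shares 263 of its 3077 exon bases with Thra, the thyroid hormone receptor alpha gene on the opposite strand. As the strand setting of the counting is not given in the sources used here, reads of the shared stretch cannot be told apart, and Thra stood at 6.02 CPM in Ripk1-hepKO and 5.41 CPM in Ripk1-Con mice.

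Dbp (ENSMUSG00000059824, chromosome 7, 45705088 to 45710203, plus strand) encodes a PAR bZIP activator of clock output genes. It stood at 6.18, 3.09, 18.6 and 4.96 CPM in Ripk1-hepKO livers, against 4.96, 6.76, 3.55 and 6.27 CPM in Ripk1-Con livers. Mouse 37 was far above all the others, and the group means were 8.20 ± 7.03 CPM in Ripk1-hepKO and 5.39 ± 1.44 CPM in Ripk1-Con mice (SD, n = 4 each). The log2 fold change of 0.60 ± 0.51 (SE; adjusted p = 0.827 in edgeR; 95% interval -0.55 to 1.75) was -0.18 without mouse 37. Dbp shares 539 of its 2993 exon bases with Sphk2, a sphingosine kinase gene on the opposite strand, which stood at 17.3, 15.0, 23.2 and 15.7 CPM in Ripk1-hepKO livers, against 27.9, 20.2, 20.8 and 28.8 CPM in Ripk1-Con livers. Sphk2 was highest of its genotype in mouse 37, as Dbp was, but below controls 29 and 41, where Dbp stood at 4.96 and 6.27 CPM. The part of shared reads in the Dbp value was not tested. The remaining overlaps, 33 bases of Arntl and 118 of Bhlhe40, were with antisense genes whose group means were at most 0.0160 CPM.

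Bhlhe40 (DEC1; ENSMUSG00000030103, chromosome 6, 108660629 to 108666925, plus strand), a repressor that competes for E-boxes and also responds to hypoxia and inflammatory signals, had the largest log2 fold change among the members. It stood at 238, 122, 60.2 and 188 CPM in Ripk1-hepKO livers, against 70.7, 74.2, 84.8 and 77.4 CPM in Ripk1-Con livers. Mice 28, 34 and 39 lay above every control and mouse 37 lay below every control, so the groups overlapped. The means were 152 ± 77.5 CPM in Ripk1-hepKO and 76.8 ± 6.01 CPM in Ripk1-Con mice (SD, n = 4 each). The fitted log2 difference was 0.99 ± 0.35 (SE; adjusted p = 0.742 in edgeR; 0.313 to 0.959 under the alternatives, the lowest in DESeq2), with a 95% interval, not adjusted for the number of genes, of 0.20 to 1.78. It was 0.69 without mouse 28 and 1.26 without mouse 37 (adjusted p = 0.513 in edgeR). The 6 stellate cell markers summed to 283 to 398 CPM in Ripk1-hepKO and 241 to 292 CPM in Ripk1-Con mice. Mouse 28 was highest in them and mouse 39 next, at 313 CPM. Neutrophil, monocyte and cholangiocyte markers were also highest in mouse 28, with sums of 43.4, 99.8 and 62.7 CPM, and in Ripk1-hepKO they were lowest in mouse 39, the second highest in Bhlhe40, with 9.30, 54.3 and 15.5 CPM. Over the groups, the 6 neutrophil markers ran from 9.30 to 43.4 CPM in Ripk1-hepKO and from 3.15 to 29.5 CPM in Ripk1-Con mice, the 5 monocyte markers from 54.3 to 99.8 CPM in Ripk1-hepKO and from 23.4 to 90.5 CPM in Ripk1-Con mice, and the 5 cholangiocyte markers from 15.5 to 62.7 CPM in Ripk1-hepKO and from 13.5 to 34.5 CPM in Ripk1-Con mice. Endothelial cell markers were highest in mouse 39, at 181 CPM, with 140, 134 and 117 CPM in mice 28, 34 and 37. In Ripk1-Con mice they ran from 86.1 to 160 CPM. Kupffer cell markers stood at 278, 222, 258 and 180 CPM in Ripk1-hepKO mice, lowest in mouse 39, and from 69.8 to 317 CPM in Ripk1-Con mice. No marker was at 0 in all mice. The part of those cells in the Bhlhe40 value was not tested.

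**Figure D2:**
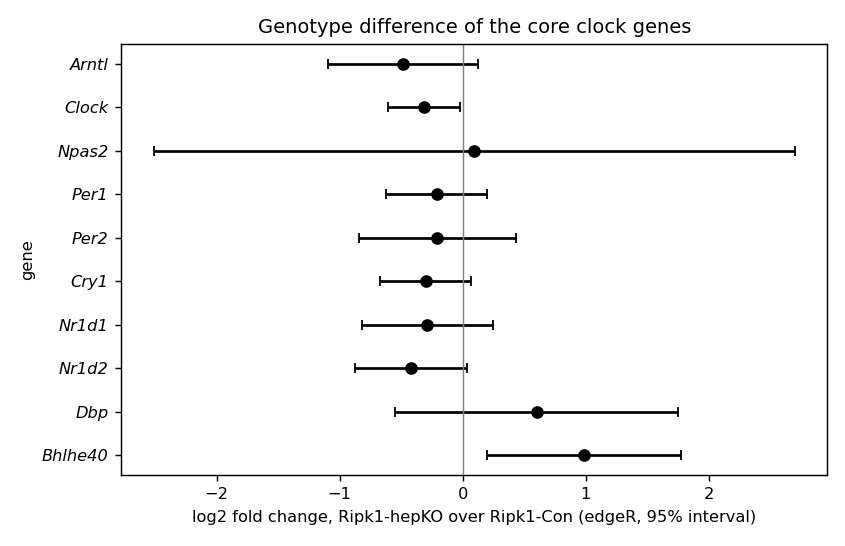
log2 fold change of each core clock gene, Ripk1-hepKO over Ripk1-Con, on the horizontal axis, with genes down the page. Points are edgeR estimates and bars their 95% intervals (n = 4 mice each), unadjusted for the number of genes. The intervals of Clock (-0.61 to -0.02) and Bhlhe40 (0.20 to 1.78) do not cover 0, and no gene passed after adjustment.

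The phase relation of the members was then read mouse by mouse. A phase index was taken as the mean log2(CPM + 1) of Dbp, Nr1d1, Per1 and Per2 minus that of Arntl and Npas2, with the mean of the 8 mice set to 0, so that a high value means more of the day and dusk genes relative to the late night genes. The index was -0.49, -0.48, 1.30 and -0.20 in Ripk1-hepKO livers, and -0.02, 0.73, -1.06 and 0.22 in Ripk1-Con livers. The highest value (mouse 37) was in Ripk1-hepKO and the lowest (mouse 40) in Ripk1-Con, and each genotype spanned most of the range. The means were 0.03 ± 0.85 in Ripk1-hepKO and -0.03 ± 0.75 in Ripk1-Con mice (SD, n = 4 each), a difference of 0.07, far inside the spread between mice. Mouse 37 was at 0.49 relative to the mean of the mice for the day and dusk genes and at -0.81 for Arntl and Npas2, whereas mouse 40 was at -0.23 and 0.84. Arntl and Npas2, the latter near the floor, parted in mice 28, 39, 29 and 41. Relative to the mean of the mice, Arntl was at -0.24, -0.24, 0.24 and 0.27 there. Npas2 was at 0.44, 0.43, -0.37 and -0.33, and the late night part of the index took its sign. The sign of the difference between the genotypes turned without mouse 37 (-0.36) or mouse 40 (-0.28).

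Mouse 37 had the most Dbp, the least Arntl and no Npas2 read among the 8 mice, and its Nr1d1 was second only to that of mouse 32. Mouse 40 had the most Arntl, Npas2 and Cry1, and its Dbp was the lowest but for mouse 34. Mice 32 and 41 shared a high Nr1d1 and Nr1d2 with mouse 37. Their Dbp was next in rank, but at 6.76 and 6.27 CPM, against 18.6 CPM in mouse 37. The Per genes did not follow this order: relative to the mean of the mice, log2(CPM + 1) of Per1 was -0.21 in mouse 37, 0.18 in mouse 40 and 0.48 in mouse 32, and Per2 was highest in mouse 41. Mouse 28 did not follow it either, with the lowest Per2, Cry1, Clock, Nr1d1 and Nr1d2 of all mice beside a middling Dbp and the highest Bhlhe40. The labels give no sampling times and the index has no scale in hours, so earlier or later sampling cannot be told apart here from a shifted or damped clock in the mouse.

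**Figure D3:**
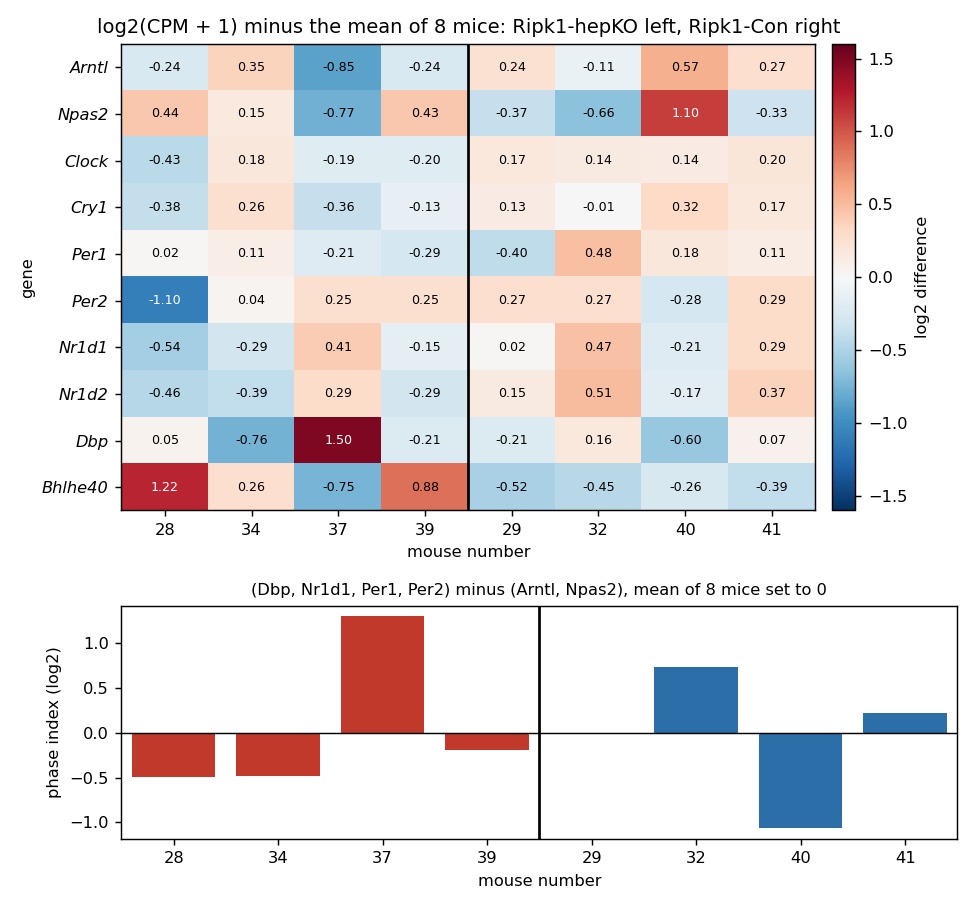
Upper panel: log2(CPM + 1) of each core clock gene minus its mean over the 8 mice, by mouse number, with Ripk1-hepKO mice left of the line and Ripk1-Con mice right of it. Lower panel: the phase index on a log2 scale, with 1 bar for each mouse (no replicate of a mouse), from -1.06 in mouse 40 to 1.30 in mouse 37.

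Arntl was set against each of the other members over the 8 mice, as log2(CPM + 1), which gave 9 relations with Benjamini-Hochberg adjustment over them. Cry1 followed Arntl, with Pearson r = 0.92 (exact two-sided permutation adjusted p = 0.0016) and Spearman rho = 0.98 (adjusted p = 0.0036), and r was 0.91 without mice 37 and 40, the mice farthest from the median of Arntl. With the mean of each genotype subtracted r was 0.88, a description without a test, as the permutation ran over all 8 mice regardless of genotype. The share of all genes that follow Arntl as closely was not counted. Dbp ran opposite to Arntl, with r = -0.87 (exact two-sided permutation adjusted p = 0.0345) and rho = -0.71 (adjusted p = 0.249). Without mice 37 and 40 that r was -0.52, so the relation rests in part on those mice. The rank relation did not pass.

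The other 7 relations did not pass. Clock had r = 0.70 with Arntl and rho = 0.67 (exact permutation adjusted p = 0.121 and 0.249), and r was 0.81 without mice 37 and 40. Npas2, which shares REV-ERB control with Arntl, had r = 0.50 and rho = 0.40 (adjusted p = 0.464 and 0.588), and r turned to -0.39 without those mice. Nr1d1 and Nr1d2 had r = -0.32 and -0.19 (adjusted p = 0.724 and 0.852; rho = -0.24 and 0.00, adjusted p = 0.873 and 1.0), and r was 0.20 and 0.22 without mice 37 and 40. Per1, Per2 and Bhlhe40 had r = 0.29, -0.02 and -0.05 (adjusted p = 0.724, 0.951 and 0.951; rho = 0.45, 0.05 and 0.10, adjusted p = 0.588, 1.0 and 1.0), and r was -0.04, 0.44 and -0.63 without mice 37 and 40. With the genotype means subtracted, r with Arntl was 0.51 for Clock, 0.69 for Npas2, 0.12 for Per1, -0.26 for Per2, -0.77 for Nr1d1, -0.83 for Nr1d2, -0.93 for Dbp and 0.46 for Bhlhe40, a description without a test of its own.

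**Figure D4:**
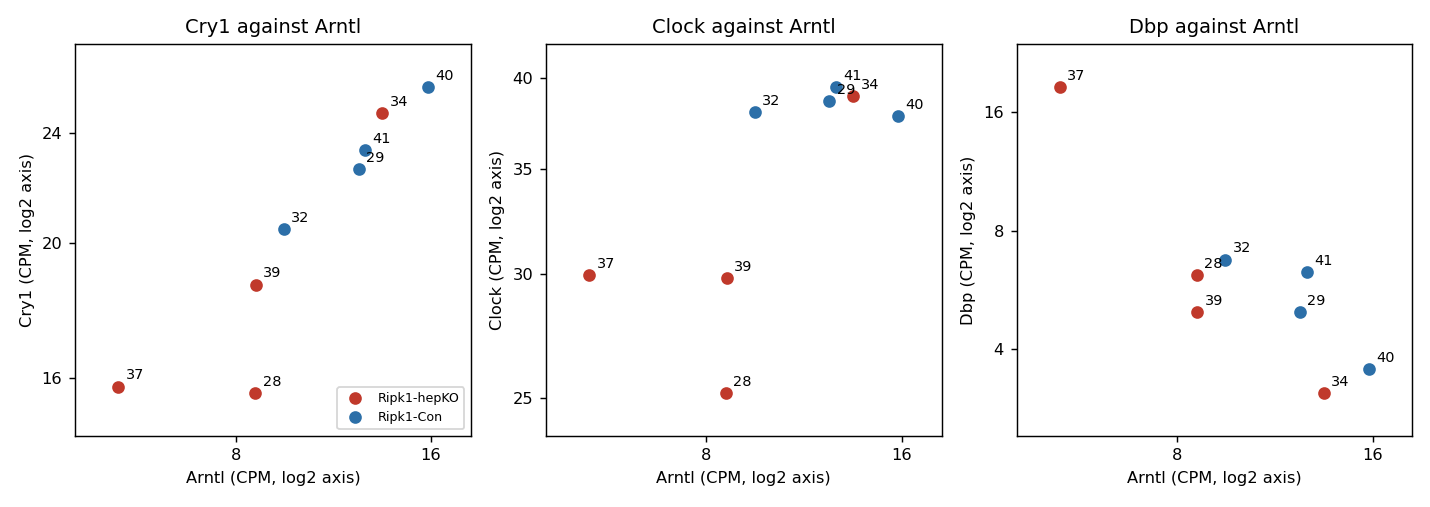
CPM of Cry1, Clock and Dbp against CPM of Arntl, both on log2 axes, with each point 1 mouse (Ripk1-hepKO red, Ripk1-Con blue) and its number. Cry1 and Arntl are high in the same mice of both genotypes (r = 0.92), and Dbp is low where Arntl is high (r = -0.87, and -0.52 without mice 37 and 40).

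The members differed in how far mice of a genotype spread. The biological coefficient of variation was 1.15 for Npas2, 0.497 for Dbp and 0.353 for Bhlhe40, at percentiles 99.6, 91.4 and 77.4 among all tested genes. Per2, Arntl, Nr1d1, Nr1d2, Per1 and Cry1 lay between percentiles 66.0 and 32.6, and Clock was lowest, at 0.166 and percentile 17.5. The median percentile of the 10 members was 60.0. From the lowest mouse to the highest, Clock differed 1.57-fold, Cry1 1.66-fold, Nr1d1 2.12-fold, Per2 2.68-fold and Bhlhe40 3.96-fold.

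Of 28 further genes of the clock and of its kinases, ligases and cofactors, all tested, 0 passed in edgeR in each direction (0.0% of all genes), 0 in DESeq2, and 1 of 28 had an unadjusted p under 0.05 (6.68% of all genes). Their median log2 fold change was 0.01, with 14 above and 14 below 0, and lay between -0.02 and 0.05 with single mice left out. Per3, a period gene, stood at 11.1, 17.5, 25.9 and 28.3 CPM in Ripk1-hepKO livers, against 28.2, 24.2, 24.8 and 32.5 CPM in Ripk1-Con livers (log2 fold change -0.40 ± 0.27, SE; adjusted p = 0.788 in edgeR), and the log2 fold change was -0.20 without mouse 28. Cry2, the second cryptochrome, stood at similar levels, at 33.0, 26.0, 29.03 and 32.6 CPM in Ripk1-hepKO livers, against 30.7, 33.1, 27.1 and 32.4 CPM in Ripk1-Con livers, with a 95% interval of the log2 fold change of -0.29 to 0.22. Tef, a relative of Dbp, averaged 101 ± 40.8 CPM in Ripk1-hepKO and 125 ± 12.4 CPM in Ripk1-Con mice (SD, n = 4 each). Its lowest value, 54.4 CPM, was in mouse 28 and its highest, 153 CPM, in mouse 37, and the log2 fold change of -0.31 was -0.10 without mouse 28 and -0.57 without mouse 37. Ciart, a repressor of CLOCK and BMAL1, was highest in mice 37 and 32, at 8.17 and 7.71 CPM, with group means of 5.02 ± 2.15 CPM in Ripk1-hepKO and 4.70 ± 2.37 CPM in Ripk1-Con mice. Nfil3, which opposes DBP at D-boxes, stood at 84.5 CPM in mouse 28 and at 11.9 to 41.5 CPM in the other 7 mice. The log2 fold changes of Cry2, Ciart and Nfil3 turned sign with single mice left out.

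The smallest p values of these 28 genes were those of Timeless and Gsk3b above 0 and of Ncor1 and Per3 below 0. Timeless, better known in mammals for its role at replication forks, averaged 3.24 ± 0.604 CPM in Ripk1-hepKO and 2.31 ± 0.226 CPM in Ripk1-Con mice (SD, n = 4 each), and its groups did not overlap (2.01% of all genes did so on the higher side). Gsk3b, a kinase of clock proteins, averaged 40.3 ± 9.50 CPM in Ripk1-hepKO and 31.4 ± 2.89 CPM in Ripk1-Con mice. Ncor1, the corepressor of the REV-ERBs, averaged 99.0 ± 4.24 CPM in Ripk1-hepKO and 114 ± 8.81 CPM in Ripk1-Con mice. Timeless, Gsk3b and Ncor1 did not pass (adjusted p = 0.742, 0.750 and 0.754 in edgeR), and the log2 fold change of Gsk3b, 0.36, was 0.19 without mouse 28.

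Clock output genes of liver gave 0 calls of 24 in edgeR (0.0% of all genes) and 1 in DESeq2, where 0.237% of all genes were called. At an unadjusted p under 0.05 there were 4 of 24 in edgeR (6.68% of all genes). The median log2 fold change was 0.15, and ran from 0.09 without mouse 29 to 0.27 without mouse 40. The gene called by DESeq2 was Klf9, a transcription factor that both the clock and glucocorticoids induce. It stood at 97.1, 76.5, 90.7 and 73.3 CPM in Ripk1-hepKO livers, against 124, 175, 117 and 152 CPM in Ripk1-Con livers (log2 fold change -0.75 ± 0.16, SE; adjusted p = 0.742 in edgeR; 0.0309 in DESeq2, and up to 0.959 under the other alternatives). The groups of Klf9 did not overlap (2.09% of all genes on the lower side). Elovl3, a fatty acid elongase of strong daily rhythm, averaged 1.58 ± 0.892 CPM in Ripk1-hepKO and 3.40 ± 1.17 CPM in Ripk1-Con mice (SD, n = 4 each). Ppard, a nuclear receptor, averaged 7.79 ± 1.3803 CPM in Ripk1-hepKO and 5.36 ± 0.729 CPM in Ripk1-Con mice, without overlap (2.01% of all genes on the higher side). Por, the electron donor of cytochromes P450, averaged 682 ± 148 CPM in Ripk1-hepKO and 523 ± 53.0 CPM in Ripk1-Con mice. Elovl3, Ppard and Por did not pass (adjusted p = 0.742, 0.742 and 0.747 in edgeR). Without mice 28 and 40 together, the log2 fold change of Elovl3 was -0.69, against -1.10 with them, and that of Por 0.25, against 0.38.

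Genes that answer glucocorticoids, body temperature or heat shock, through which the liver clock receives time signals, gave 0 calls of 12 in edgeR (0.0% of all genes) and 0 in DESeq2, which gave no adjusted p for Sgk1. Rbm3 was the 1 gene of 12 with an unadjusted p under 0.05 (6.68% of all genes). The median log2 fold change was -0.48, with 9 of 12 below 0 (48.2% of all genes), and it was -0.26 without mouse 28 and -0.23 without mouse 32. Rbm3, an RNA-binding protein induced by cold, averaged 55.0 ± 17.8 CPM in Ripk1-hepKO and 38.2 ± 5.46 CPM in Ripk1-Con mice (SD, n = 4 each; adjusted p = 0.742 in edgeR), with a log2 fold change of 0.53, or 0.31 without mouse 28. Zbtb16, a glucocorticoid target, averaged 35.8 ± 17.1 CPM in Ripk1-hepKO and 55.4 ± 7.40 CPM in Ripk1-Con mice, with mouse 28 lowest at 13.2 CPM, without which the log2 fold change was -0.36, against -0.63 with it. Hspa1a, a heat shock protein that shares sequence with Hspa1b, averaged 5.13 ± 3.75 CPM in Ripk1-hepKO and 10.6 ± 5.90 CPM in Ripk1-Con mice (log2 fold change -1.05). It gave -1.65 without mouse 37 and -0.70 without mouse 32. Sgk1, a kinase induced by glucocorticoids, stood at 218 CPM in mouse 28 and at 16.001 to 38.5 CPM in the other 7 mice (log2 fold change 1.64, or -0.0462 without mouse 28). The glucocorticoid targets Fkbp5 and Tsc22d3 were instead lowest in mouse 28, as Zbtb16 was. Fkbp5 stood at 31.9 CPM there and at 82.1 to 165 CPM in the other 7 mice. Tsc22d3 stood at 12.0 CPM there and at 40.1 to 62.4 CPM in the others.

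The patterns nearest to Arntl and Dbp over the 8 mice were sought among 8972 genes with a mean of at least 5 CPM and an established symbol. Nearness was taken as the root mean square difference of mean-centred log2(CPM + 1). Cry1 was nearest to Arntl, at 0.22, ahead of Cep135, Tbck, Cyb5d1 and Bco1 at 0.24 to 0.25, where Arntl itself had a spread of 0.42. Upp2, a uridine phosphorylase with a daily rhythm in liver, was nearest to Dbp, at 0.31, ahead of Plekha7, Ugt2b1, Uap1l1 and Wdr91 at 0.36 to 0.39, where Dbp had a spread of 0.64. Upp2 stood at 58.9, 19.9, 94.4 and 31.3 CPM in Ripk1-hepKO livers, against 34.6, 41.01, 22.0 and 25.9 CPM in Ripk1-Con livers. Like Dbp, it was highest in mouse 37 and lowest in mice 34 and 40. This likeness is a description over 8 mice that share the scaling of their libraries.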

How the data were processed

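Whole-number counts per Ensembl gene in 1 table, with 1 column per mouse, were deposited by the authors without normalization. Per the labels' protocols, TRIzol RNA was poly(A)-selected, dUTP marked the strand and libraries were read in pairs. STAR 2.5.2b, DESeq2 1.38.1, StringTie 2.2.1, FastQC 0.11.5 and, as the genome build, GRCm38.p6 appear in the submitters' processing notes without their roles. The counting tool, annotation release and strand setting are not given in the sources used here.

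Symbols, positions and exon lengths came from GENCODE M21 (GRCm38), where 55154 gene IDs matched and 181 did not. The genotypes were compared in R 4.3.3 by edgeR 4.0.16 (filterByExpr, TMM, robust quasi-likelihood fit of genotype, Benjamini-Hochberg over 15234 genes, FDR 0.05). The fold change is Ripk1-hepKO over Ripk1-Con. Correlations used exact permutation over the 8 mice. No libraries were alike within sampling noise (chi-square per degree of freedom at least 36.9). The fit was also run on simulated counts, whose outcome is not given here, and no result rests on it. Intervals and floors cover counting error or the spread between mice only, since PCR copies were not told apart by molecular identifiers.

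The alternatives were library size alone, DESeq2 size factors, no filter, 1 CPM in 4 libraries, DESeq2 1.42.0, limma 3.58.1 voom with quality weights, each mouse left out, mice 28 and 40 left out together, pseudocounts of 0.25 and 5 CPM and a wider gene set for the index, and the variance of log2(CPM + 1) for the spread. The scalings of the correlations were added after the data had been seen. The members, the lists and the rule for named genes were chosen with earlier results of these data known. That rule names the members, Per3, Cry2, Tef, Ciart and Nfil3, the 2 genes of smallest p in each direction of each list, and the 5 genes nearest to Arntl and to Dbp. Fkbp5 and Tsc22d3 are given beyond that rule, beside Sgk1 and Zbtb16.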

Additional observations from a re-analysis of the deposited data

Results flagged for a closer look

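Values were flagged where 1 mouse stood far from the other 3 of its group, which chance does in about 1 in 20 groups. Of 52 groups examined, 6 were flagged. In Ripk1-Con mice, Npas2 was 2.66 CPM in mouse 40, against 0.356 CPM in the next mouse. Per2 in Ripk1-Con mice was 52.1 CPM in mouse 40, where the next was 76.4 CPM. Sgk1 in the same mouse was 38.5 CPM, above 19.8 CPM in the next control. Timeless was 1.97 CPM in Ripk1-Con mouse 41, below 2.40 CPM in the next. In Ripk1-hepKO mouse 28, Nfil3 was 84.5 CPM and Sgk1 218 CPM, where the next mice of that genotype had 21.2 and 26.0 CPM. Mouse 28 is the library that stood apart over all genes, and mouse 40 the one lowest in Kupffer cell markers. The part of either in these values was not tested.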

How the results depend on the processing

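No paired analysis was run, since the labels used here name no pairs of mice across the genotypes. No core clock gene was called under any of the 15 alternatives run on the fit, and their median log2 fold change stayed between -0.31 and -0.18. With the DESeq2 Wald test 36 genes were called over the whole table, and 1 clock output gene (Klf9). Directions of Arntl, Clock, Per1, Cry1, Nr1d1, Nr1d2 and Bhlhe40 held throughout. With single mice left out, log2 fold changes ran from -0.31 to 1.85 for Npas2, -0.32 to 0.0281 for Per2, -0.18 to 0.88 for Dbp, -0.0796 to 0.0398 for Cry2, -0.24 to 0.44 for Ciart, -0.57 to 0.71 for Nfil3 and -0.0462 to 2.03 for Sgk1, each crossing 0. Scaling by library size alone turned Cry2 to 0.00799 and the r of Arntl with Per2 to 0.0799. Nfil3 turned to -0.32 with limma voom and to -0.73 without mice 28 and 40. The cause was not tested. The difference in phase index ran from -0.36 to 0.32 with single mice left out and was -0.10 without mice 28 and 40. The median percentile of the members' spread was 82.9 by the variance of log2(CPM + 1) and 60.0 as reported. Npas2 could not be fitted with the filter of 1 CPM in 4 libraries, which removed it. Counts of Npas2 ran from 0 to 80, with a coefficient of variation between mice of 1.15. The count of 80 was in mouse 40, whose library was the smallest, at 28038390 counts. Mouse 32, with the largest library, at 67328158 counts, had 5. The part of depth in the Npas2 values was not tested.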
